A study of Mus musculus with 24 samples.

Results

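H3K27Ac, histone H3 acetylated at lysine 27, was compared between mouse brain and mouse liver over 26944 genes. The brain side holds 1 flash frozen (Frozen) and 1 formalin-fixed, paraffin-embedded (FFPE) library, and so does the liver side, which makes 4 of the 8 libraries of the study's gene table. The labels describe 24 samples in all, from brain, heart, kidney and liver, and 8 of those belong to these 4 groups as H3K27Ac samples. They give the species and the organ, but no strain, age, sex, genotype or treatment of the mice. Per the labels' protocols, Frozen cores were fixed for 30 min with 1% formaldehyde. The fixative of FFPE tissue was 10% formalin, and a step of 20 min at 95 °C released its chromatin. Each value is log2 CPM, the log2 of a gene's reads scaled to an effective library size, which is the library's total times a factor of 0.918 to 1.22 in these 4. Per organ there is 1 library in each preservation. A gene's own spread is that of 8 libraries around additive effects of organ and preservation, and it may be technical. The tests draw that spread toward a trend over all genes. The trend weighs a median of 30.6 prior degrees of freedom against 3 residual ones. Standard errors and p-values so rest mostly on the spread of other genes. Which animal gave which library is not stated.

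H3K27Ac is deposited by the acetyltransferases p300 and CBP at active promoters and enhancers, and domains of it cover the genes that define a cell's identity. The brain is made of neurons, whose genes serve synapses and excitability, and of glia, which insulate and feed them. The liver is made mostly of hepatocytes, which secrete plasma proteins, make bile acids and glucose and dispose of ammonia and drugs, beside sinusoidal endothelium and Kupffer cells. Hepatocyte genes are switched on by the liver-enriched factors HNF4A, FOXA2 and C/EBPα, and neuronal genes are held off outside the nervous system by the repressor REST, which binds the RE1 element.

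Some microRNA genes were among those that differed, and their mature sequences show what the loci make. MicroRNAs silence messenger RNAs that pair with their seed, bases 2 to 8, which is in capitals in the lines that follow. These genes were picked out after their values were seen. The sequences are from RefSeq on GRCm38.p6, and the first is made by 3 loci, Mir9-1, Mir9-2 and Mir9-3, that were all higher in brain, while the other 4 come from genes higher in liver.
mmu-miR-9-5p: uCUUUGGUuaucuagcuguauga
mmu-miR-148a-3p: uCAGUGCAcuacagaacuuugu
mmu-miR-192-5p: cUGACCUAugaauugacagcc
mmu-miR-203-3p: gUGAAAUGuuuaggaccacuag
mmu-miR-339-5p: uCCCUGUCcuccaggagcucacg

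The promoters of 4 genes from both directions of the comparison were picked after their values were seen. They are shown for motifs picked for each gene and for their CG content. Each line gives the 250 bases before the RefSeq start on GRCm38.p6, read in the direction of transcription. Alb is serum albumin and Cyp8b1 the sterol hydroxylase that makes cholic acid, both higher in liver. Syn1, which encodes the vesicle protein synapsin, and Grin1, the obligatory subunit of NMDA receptors, were higher in brain. They lie at chr5:90460620-90460869 (Alb, plus strand), chr9:121916306-121916555 (Cyp8b1, minus), chrX:20920919-20921168 (Syn1, minus) and chr2:25319188-25319437 (Grin1, minus). Capitals mark an HNF4A core (CAAAGTC) in Alb, an HNF4A core and a TATA box (TATAAA) in Cyp8b1, RE1 cores (CAGCACC) and a CRE (TGACGTC) in Syn1, and every CG dinucleotide in Grin1.
Alb: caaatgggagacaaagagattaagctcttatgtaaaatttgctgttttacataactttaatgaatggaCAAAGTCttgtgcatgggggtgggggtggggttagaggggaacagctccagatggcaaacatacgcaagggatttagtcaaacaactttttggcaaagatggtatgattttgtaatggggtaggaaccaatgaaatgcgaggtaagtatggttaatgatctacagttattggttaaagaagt
Cyp8b1: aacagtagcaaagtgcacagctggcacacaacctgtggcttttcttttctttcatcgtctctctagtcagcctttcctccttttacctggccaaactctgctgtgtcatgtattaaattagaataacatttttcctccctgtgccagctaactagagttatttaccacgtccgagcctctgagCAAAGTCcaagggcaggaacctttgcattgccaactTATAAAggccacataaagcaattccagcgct
Syn1: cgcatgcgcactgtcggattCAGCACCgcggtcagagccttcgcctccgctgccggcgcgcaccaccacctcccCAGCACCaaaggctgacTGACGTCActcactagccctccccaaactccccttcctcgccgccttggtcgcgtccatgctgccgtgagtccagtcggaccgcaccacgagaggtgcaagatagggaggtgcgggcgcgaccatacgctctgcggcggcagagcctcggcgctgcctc
Grin1: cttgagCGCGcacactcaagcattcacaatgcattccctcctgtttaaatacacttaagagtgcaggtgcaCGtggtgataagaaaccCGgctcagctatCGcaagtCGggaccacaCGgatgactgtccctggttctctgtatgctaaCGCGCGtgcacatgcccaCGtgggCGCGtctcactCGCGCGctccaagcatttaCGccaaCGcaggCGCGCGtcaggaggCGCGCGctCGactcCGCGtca

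Each printed promoter was searched only for the motifs marked in it, so motifs were not compared among these genes. Motifs were searched on both strands, and the CRE in Syn1 matches on each strand with an offset, so that 8 letters are in capitals. The HNF4A core spans 182 to 176 bases before the start of Alb and 67 to 61 before that of Cyp8b1. Syn1 has its RE1 cores from 230 and from 176 bases before the start. Syn1 and Grin1 hold 27 CG dinucleotides each in these 250 bases, against 2 in Alb and 4 in Cyp8b1. Over all 27025 promoters of the RefSeq table, with a window of 300 bases that adds 50 after the start, 4.37% hold the HNF4A core, 14.2% the TATA box, 7.10% the RE1 core and 3.30% the CRE. In that window 61.9% of promoters of protein-coding genes higher in liver had a CpG ratio, observed over expected, of at least 0.6. The share was 49.8% over all tested protein-coding genes, so the CG-poor Alb and Cyp8b1 do not stand for the genes higher in liver. Genes higher in brain were not compared in this way. A match is a description of letters and not a site of binding.

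Counts per library were close across the comparison. They came to 4713901 in brain Frozen, 4618827 in brain FFPE, 6164562 in liver Frozen and 4404789 in liver FFPE. The median gene had 94 to 119 counts. Genes of the mitochondrial genome took 5.62% of the counts in brain Frozen and 5.29% in the Frozen liver, against 16.0% and 12.7% after FFPE preservation of brain and liver. Liver Frozen stood apart in the spread of its values, with a standard deviation over genes of 2.39 (log2 CPM) against 1.94 to 2.05 in the other 3. The part of liver Frozen in the calls of all genes, gene lists and named genes was addressed by leaving it out. Counts without it stand beside several of those results. Runs of neighbours, the place of heart and kidney, gene families and promoter features were not counted again without it. In these bulk libraries, fewer cells of a type and less H3K27Ac per cell cannot be told apart.

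Brain and liver differed over a large share of genes, in the same direction in Frozen and in FFPE tissue. A gene was called when limma gave a Benjamini-Hochberg adjusted p under 0.05 over all genes and its brain minus liver difference had the same sign in both preservations. By this rule 3052 genes were higher in brain (11.3% of those tested) and 4020 were higher in liver (14.9%), 26.2% together. Another 20 genes passed the threshold with opposite signs and were not called. The called genes differed by a median of 1.43 (log2) in Frozen and 1.19 in FFPE where brain was higher, and by -1.54 and -0.997 where liver was higher. Differences past 4-fold were reached by 425 genes higher in brain and 750 higher in liver, and past 8-fold by 66 and 152.

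The number of called genes depended on the Frozen libraries and on the scaling. Where a brain or liver library was left out, here and in what follows, the sign was checked only in the preservation that kept both organs. Calls in those fits so follow a looser rule than the main one. Without brain Frozen 1674 genes were higher in brain and 2406 in liver, and without liver Frozen 1604 and 1993. Over all genes the median difference was 0.10 (log2). With library totals that leave out mitochondrial genes it rose to 0.34, and the split became 4345 higher in brain and 2961 higher in liver, so that brain took 59.5% of the calls in place of 43.2%.

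A 2-fold difference in each preservation on its own is a rule that needs no model. Of 22384 genes with at least 40 counts over the brain and liver pair in each preservation, 1487 (6.64%) were at least 2-fold higher in brain in both and 1787 (7.98%) at least 2-fold higher in liver in both. In 40 genes the 2 preservations differed by at least 2-fold in opposite directions. Frozen tissue gave more such genes, 3997 for brain and 4174 for liver, than FFPE tissue, with 2220 and 2263. Of the genes 2-fold higher in brain, 37.2% of those found in Frozen were also found in FFPE and 67.0% of those found in FFPE in Frozen. For liver the shares were 42.8% and 79.0%. The difference was larger in Frozen than in FFPE tissue for 75.2% of called genes, and the standard deviation of the differences was 1.15 in Frozen and 0.88 in FFPE. Across the 22384 genes, which are not independent replicates, the differences had a Pearson correlation of 0.73, and 72.8% had the same sign.

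**Figure D1:**
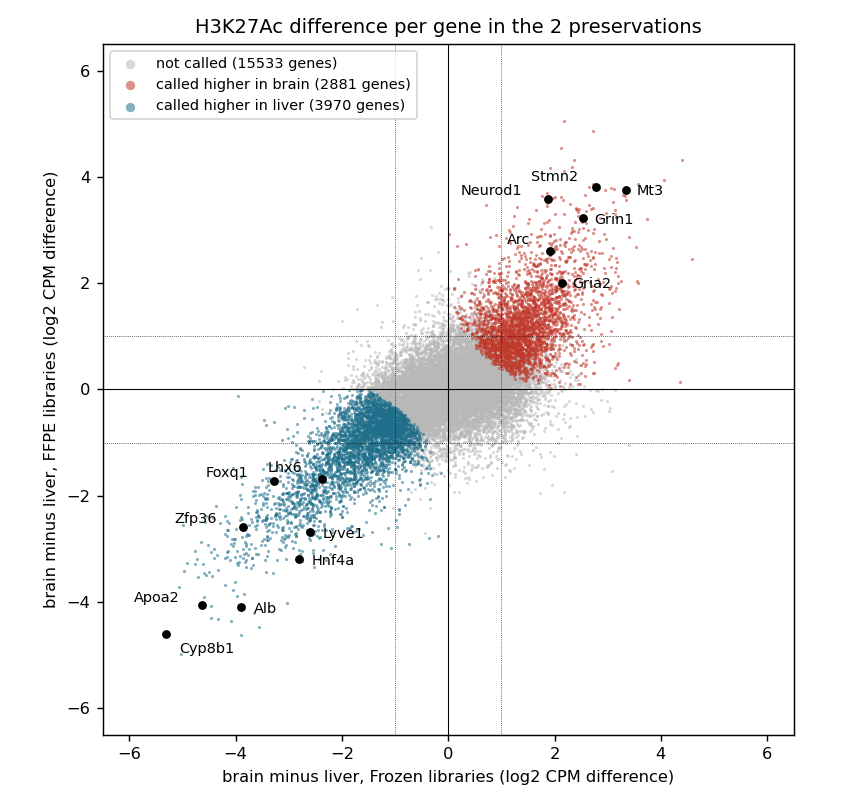
Each point is a gene with at least 40 counts over the brain and liver pair in each preservation, with its brain minus liver difference in Frozen (x axis) and FFPE libraries (y axis), both in log2 CPM. Red and blue points are genes called higher in brain and in liver, grey points were not called, and dotted lines mark a 2-fold difference. The cloud runs along the diagonal and is wider along the Frozen axis, with standard deviations of 1.15 and 0.88.

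Neuronal genes were higher in brain with few exceptions. Values are given as Frozen, then FFPE, here and in what follows. Of 24 neuron genes 21 were called higher in brain and none higher in liver, where 11.3% of all genes were called higher in brain, and their median difference was 1.55 against 0.10 for all genes. Sncb, which encodes beta-synuclein, stood at 5.59 and 6.24 (log2 CPM) in brain and at 1.86 and 3.04 in liver, a difference of 3.47 ± 0.43 (log2, SE, 2 libraries a side). Stmn2, a regulator of microtubules in axons, stood at 5.58 and 6.85 in brain and 2.80 and 3.04 in liver. Nefl, the light neurofilament chain, stood at 5.89 and 5.22 against 2.33 and 3.18. In all 3 genes the lower brain library lay above the higher liver library by more than 2 log2 units. The neuronal nuclear marker Rbfox3 differed less, by 1.14 ± 0.26, and Stmn3, Nefh and Nrgn did not pass the test at 1.18, 0.37 and 0.26.

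Transmitter release and reception went with them. Synaptic vesicle genes were called higher in brain for 14 of 21 members, with a median of 1.58. Snap25, a membrane fusion protein of nerve terminals, stood at 5.32 and 6.26 in brain against 2.94 and 3.11 in liver. The complexin gene Cplx1, a clamp on vesicle fusion, differed by 2.35 ± 0.42, Amph by 1.90 ± 0.33, Syn2 by 1.85 ± 0.25 and Syn1 by 1.59 ± 0.30. The 7 that did not pass include genes that other secretory cells also use, such as Vamp2 at 0.20 and Dnajc5 at -0.26, but also Syp, the vesicle marker synaptophysin, at -0.27.

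Glutamatergic genes were called higher in brain for 17 of 20 members, with a median of 1.57 and the same sign in both preservations in all 20. Grin1, whose CG-rich promoter is shown above, stood at 6.33 and 7.06 in brain and 3.79 and 3.84 in liver, 2.88 ± 0.28 apart (limma, adjusted p = 1.83e-09). The AMPA receptor subunit Gria2 stood at 7.18 and 7.20 against 5.04 and 5.20. The NMDA receptor subunit gene Grin2b differed by 1.78 ± 0.28 and the vesicular transporter gene Slc17a7 by 1.66 ± 0.33.

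GABAergic genes were mixed. Of 17 members, 10 were called higher in brain and 1 higher in liver, with a median of 1.09. The receptor subunit gene Gabrb2 stood at 6.96 and 7.25 in brain and 4.41 and 5.33 in liver. Slc32a1, the vesicular GABA transporter, differed by 1.68 ± 0.34, and Gad1, which makes GABA, by 1.17 ± 0.32. Lhx6, a transcription factor of cortical interneurons, went the other way. It stood at 4.73 and 4.68 in brain and at 7.11 and 6.37 in liver, above heart and kidney as well, a difference of -2.03 ± 0.27 (limma, adjusted p = 5.50e-07). The peptide and calcium-binding markers of interneuron classes, Sst at 1.09, Pvalb at 0.63 and Npy at 0.51, did not pass. The count of 10 fell to 6 without either brain library and to 4 without liver Frozen.

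Transcription factors of the brain were called higher in brain for 17 of 22 members, or 11 without liver Frozen, with a median of 1.40. Zic1, which acts in cerebellar granule cells, stood at 6.03 and 7.61 in brain against 3.60 and 4.28 in liver. Neurod1, a factor of differentiating neurons, stood at 5.88 and 7.36 against 4.01 and 3.77, and Neurod2 differed by 2.26 ± 0.30. In these 3 genes brain FFPE was above brain Frozen by more than 1 log2 unit, and both were above both liver libraries. The cortical factor Emx1 did not pass, at 0.73. Rest, which encodes the repressor of neuronal genes, differed by -0.42 ± 0.27 and was not called.

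Both glial lists were mixed. Of 19 oligodendrocyte genes 10 were called higher in brain and 1 higher in liver, with a median of 1.11, and the 10 became 5 without liver Frozen. Mbp, the major basic protein of myelin, stood at 6.76 and 6.63 in brain against 4.95 and 5.04 in liver. Cldn11, a tight junction protein of the myelin sheath, differed by 1.99 ± 0.39, Ermn by 1.89 ± 0.33 and Gpr37 by 1.77 ± 0.33. Aspa, which breaks down N-acetylaspartate, was higher in liver by 1.41 (log2), at 4.12 and 4.10 in brain and 6.03 and 5.01 in liver, a call that was lost without liver Frozen.

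Of 16 astrocyte genes 5 were called higher in brain, or 3 without brain Frozen. Gjb6, a gap junction protein, differed by 1.92 ± 0.39, the stem and glial factor Sox2 by 1.63 ± 0.35 and the filament protein gene Gfap by 1.41 ± 0.29. S100b differed by 1.23 ± 0.34 and was not called without brain Frozen. Aldh1l1, a folate enzyme used as an astrocyte marker, was higher in liver, at 4.73 and 4.64 in brain against 6.04 and 6.30 in liver, and Sox9 was higher in liver by a difference of -0.84 ± 0.30, a call lost without brain FFPE and without liver Frozen. The water channel gene Aqp4 at 0.74 and the glutamate transporter gene Slc1a3 at 0.67 did not pass.

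**Figure D2:**
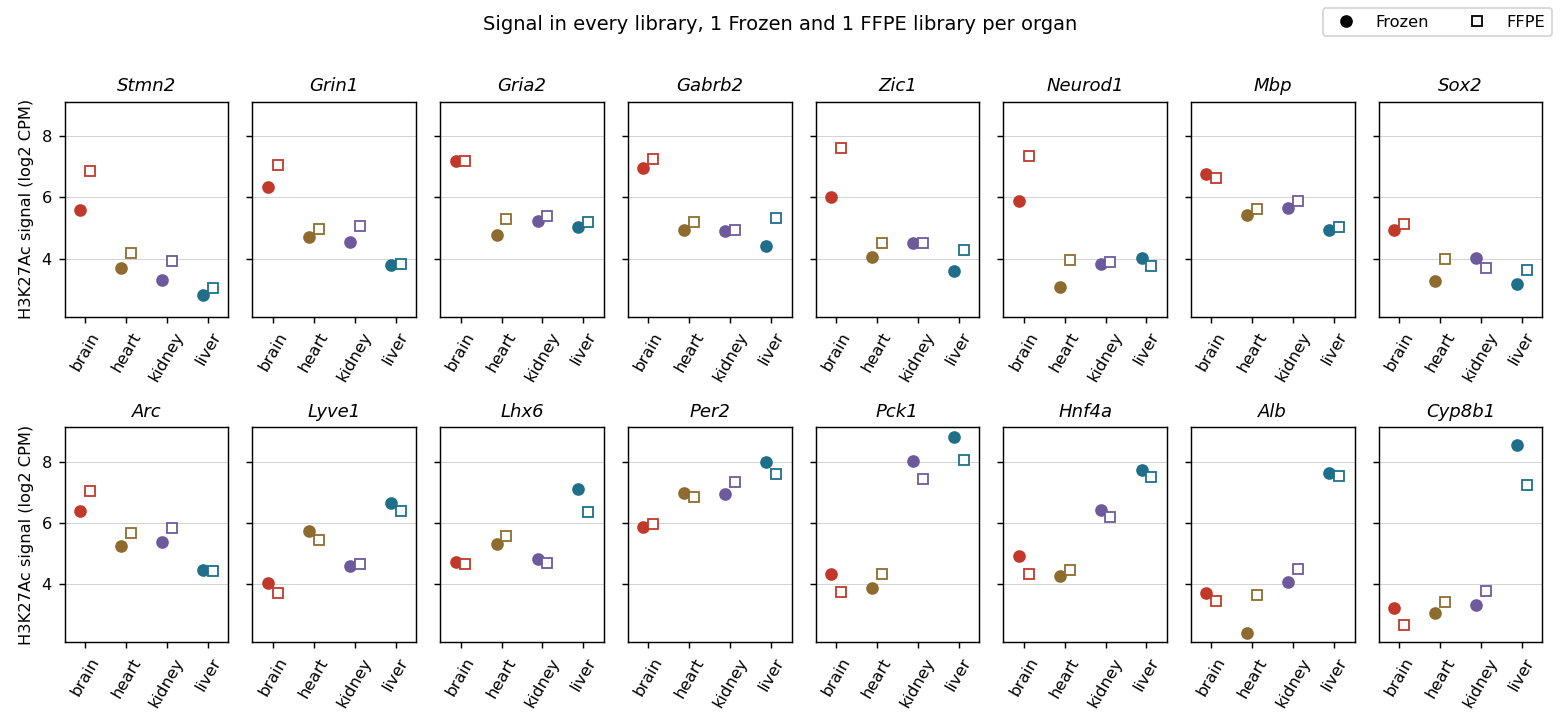
Each panel plots 1 gene in the 8 libraries in log2 CPM, with filled circles for Frozen and open squares for FFPE, for brain, heart, kidney and liver. In the panels from Stmn2 to Arc both brain libraries lie above both liver libraries, and in those from Lyve1 to Cyp8b1 both liver libraries lie above both brain libraries. Pck1 and Hnf4a are also high in kidney, and Neurod1 and Zic1 are higher in brain FFPE than in brain Frozen.

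Hepatocyte genes carried the widest differences of the comparison. All 33 plasma protein genes of the list were called higher in liver (14.9% of all genes were), with a median of -2.55 (log2), and each alternative fit called all 33. Alb stood at 3.73 and 3.45 in brain and 7.63 and 7.55 in liver, a difference of -4.00 ± 0.33. Apoa2, an apolipoprotein of high-density lipoprotein, stood at 2.35 and 1.69 against 6.99 and 5.75. Hp, which binds free haemoglobin, differed by -4.32 ± 0.36, and Orm1, an acute phase protein, by -4.22 ± 0.40. No brain library came within 3 log2 units of a liver library in any of these 4 genes.

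The transcription factors that maintain hepatocytes were called higher in liver for 18 of 19 members, with a median of -2.44. Hnf4a, a nuclear receptor at the head of the hepatocyte programme, stood at 4.93 and 4.33 in brain and 7.74 and 7.53 in liver, with kidney between them at 6.43 and 6.21. The xenobiotic receptor gene Nr1i3 differed by -3.50 ± 0.36, the pioneer factor gene Foxa2 by -3.44 ± 0.33, Creb3l3 by -3.07 ± 0.29 and Cebpa by -2.80 ± 0.26. Onecut2 was the exception, at -0.29.

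Metabolic genes of the hepatocyte followed. All 28 genes of amino acid breakdown and the urea cycle were called higher in liver, with a median of -2.15. Tat, which degrades tyrosine, stood at 4.31 and 3.61 in brain against 7.97 and 7.81 in liver, and Cps1, which fixes ammonia into carbamoyl phosphate, at 5.32 and 5.46 against 7.33 and 7.74. Hpd differed by -3.47 ± 0.31, Mat1a by -3.38 ± 0.31 and Nags by -3.15 ± 0.34.

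All 15 bile acid genes were called higher in liver, with a median of -2.09. Cyp8b1, whose promoter is printed above, stood at 3.24 and 2.67 in brain and 8.54 and 7.26 in liver, -4.95 ± 0.35 apart (limma, adjusted p = 1.12e-11). The conjugating enzymes Slc27a5 and Baat differed by -3.24 ± 0.32 and -2.94 ± 0.32, and the uptake carrier gene Slc10a1 by -2.74 ± 0.31. Cyp7a1, the rate-limiting enzyme of bile acid synthesis, stood at 4.68 and 4.57 against 6.06 and 6.90, higher in the FFPE than in the Frozen liver.

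Of 16 genes of glucose and glycogen metabolism 15 were called higher in liver, with a median of -2.57. Pck1, the entry to gluconeogenesis, stood at 4.35 and 3.75 in brain and 8.82 and 8.05 in liver, and kidney, which also makes glucose, stood at 8.03 and 7.43. G6pc, which releases free glucose, differed by -3.02 ± 0.27, Fbp1 by -2.90 ± 0.35 and Igfbp1 by -3.09 ± 0.35.

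All 21 drug metabolism genes were called higher in liver, with a median of -2.39, among them Ces3a at -3.44 ± 0.34, Adh1 at -2.99 ± 0.29 and Nnmt at -2.78 ± 0.37. Ugt1a1, which conjugates bilirubin, differed by -3.77 ± 0.38, but it shares exons with the other Ugt1a genes and reads of 1 cannot be told from those of another. Of 24 lipid genes 19 were called higher in liver. Angptl8 stood at 2.25 and 2.23 in brain against 6.59 and 5.62 in liver, and Angptl4 at 4.65 and 4.23 against 8.34 and 7.41. Fabp1, the fatty acid binding protein of liver, differed by -3.72 ± 0.50. Among genes of fat synthesis, Acaca, Scd1 and Elovl6 stood within 0.04 of 0 and were not called, while Fasn was called higher in liver.

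**Figure D3:**
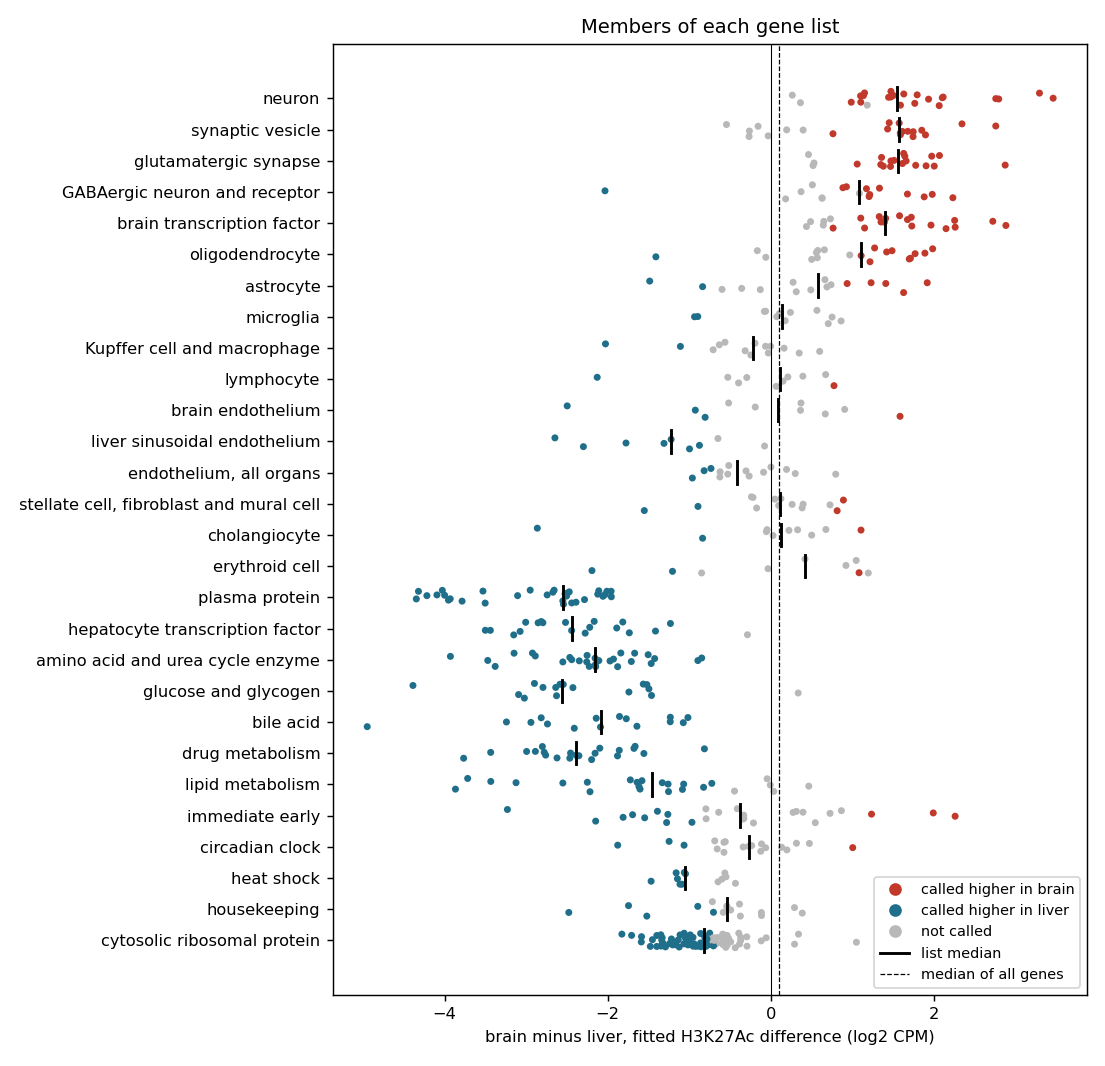
Each point is 1 gene of a list, placed at its fitted brain minus liver difference in log2 CPM, red where called higher in brain, blue where called higher in liver and grey where not called. Black bars are list medians and the dashed line is the median of all genes at 0.10. Neuronal lists lie to the right with medians up to 1.58, hepatocyte lists lie to the left with medians down to -2.57, and immune and stromal lists straddle the line.

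Lists for other cell types had few members called. Of all genes, 11.3% were called higher in brain and 14.9% higher in liver. The microglia, Kupffer cell and lymphocyte lists came near or below these shares. Microglia genes had none of 12 members called higher in brain, and P2ry12, a receptor that marks microglia, stood at 4.42 and 4.40 in brain against 4.41 and 4.26 in liver. Cx3cr1 and Sall1 were called higher in liver, at -0.89 ± 0.30 and -0.93 ± 0.28, where the call of Sall1 was lost without liver Frozen and that of Cx3cr1 without any 1 of the 4 libraries. Of 14 Kupffer cell and macrophage genes 2 were called higher in liver, Id3 at -2.03 ± 0.30 and Clec4f, a Kupffer cell lectin, at -1.11 ± 0.36. The call of Clec4f was lost without any 1 of the 4 libraries. Of 10 lymphocyte genes 1 was higher in each direction, Cd4 at 0.78 ± 0.28 and Zap70 at -2.13 ± 0.35, and the call of Cd4 was lost without any 1 of the 4 libraries. The summed levels of the 10 lymphocyte genes were 220 and 218 CPM in brain and 271 and 240 CPM in liver, and none was at 0.

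Sinusoidal endothelium had the lowest median among the lists of other cell types, with 7 of 9 members called and a median of -1.22. Lyve1, a hyaluronan receptor, stood at 4.06 and 3.72 in brain and 6.67 and 6.41 in liver. Clec4g, a lectin of liver sinusoids, differed by -2.30 ± 0.35, Fcgr2b by -1.78 ± 0.33 and Oit3 by -1.31 ± 0.29. Genes that mark endothelium in every organ had 3 of 14 members called higher in liver, Eng, Kdr and Tie1, by -0.96 ± 0.26 to -0.73 ± 0.26, and the calls of Kdr and Tie1 were lost without any 1 of the 4 libraries. The markers of brain endothelium gave 1 gene higher in brain, Lef1 at 1.59 ± 0.32, and 3 higher in liver. Those were Foxq1, at 4.86 and 5.12 in brain against 8.14 and 6.84 in liver, Mfsd2a at -0.93 ± 0.29 and Cldn5 at -0.80 ± 0.30, the last pair not without any 1 of the 4 libraries. The lists for stellate and mural cells, cholangiocytes and erythroid cells (14, 10 and 9 genes) had 1 or 2 members called in each direction. Among these was the heme synthesis gene Alas2 at -2.19 ± 0.42. Markers of the organs outside the comparison also had calls. Of 12 cardiomyocyte genes 4 (33.3%) were higher in brain and 1 (8.33%) higher in liver, against 11.3% and 14.9% of all genes. Of 12 nephron genes 1 was called in each direction, below both of those shares. The calcium release channel gene Ryr2 differed by 1.34 ± 0.27, while the calls of Myh6, Nppa, Actc1, Hand2, Aqp2 and Slc12a3 were each lost in at least 1 fit that left out a library. The 4 cardiomyocyte genes became 1 without brain Frozen and 1 without liver Frozen. Of 5 genes of the Xist and Y chromosome list none was called.

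Related genes were paired as a brain form and a liver or general form, and some pairs went separate ways. In 17 such pairs the brain form was called higher in brain in 12 and the liver or general form higher in liver in 8. Of all genes, 11.3% were called higher in brain and 14.9% higher in liver. In 5 of the 17 pairs both held. The neuronal glucose transporter gene Slc2a3 stood at 5.87 and 5.91 in brain and 4.00 and 4.92 in liver, while the hepatic Slc2a2 stood at 4.81 and 4.36 against 7.35 and 6.90. Others of these pairs were Pkm and Pklr for pyruvate kinase, Pygb and Pygl for glycogen phosphorylase, and Cpt1c and Cpt1a for carnitine palmitoyltransferase. General forms such as Dnm2, Kif5b and Elavl1 stood between -0.23 and -0.16, while their neuronal relatives Dnm1, Kif5a and Elavl3 differed by 1.66, 1.25 and 1.77. Mat2a, the form of methionine adenosyltransferase used outside the liver, was higher in liver by a difference of -0.67 ± 0.25, and Mat1a by -3.38 ± 0.31. The call of Mat2a was lost when any 1 of the 4 libraries was left out, and those of Pygb, Cpt1c and Pkm in at least 1 of these fits.

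**Figure D4:**
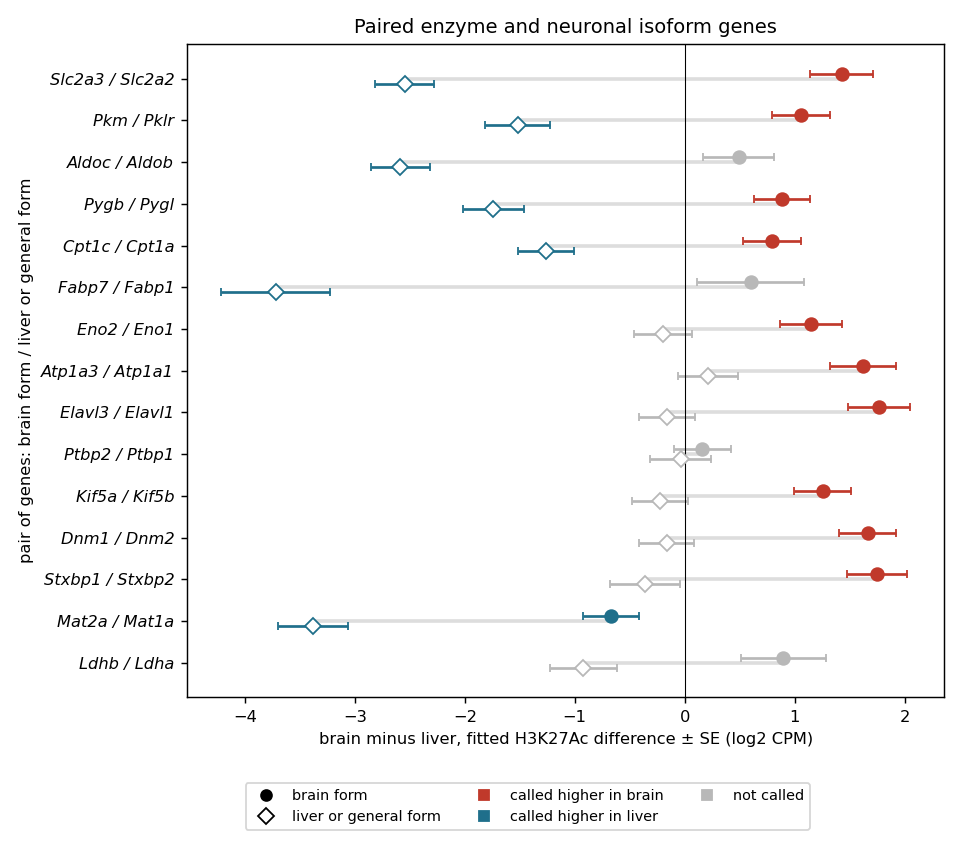
Each row is 1 of 15 of the 17 pairs of genes, with the brain minus liver difference of the brain form (circles) and of the liver or general form (diamonds) in log2 CPM, and bars are standard errors from limma. Red marks genes called higher in brain, blue genes called higher in liver and grey genes not called. The brain form lies right of its partner in all 15 pairs drawn, and Mat2a is the 1 brain form called higher in liver.

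Genes that respond to activity and stress split by gene. Of 26 immediate early genes, which are induced within minutes of a stimulus, 3 were called higher in brain and 9 higher in liver. Those are 11.5% and 34.6%, against 11.3% and 14.9% of all genes. The median difference of the 26 was -0.78 in Frozen and 0.03 in FFPE, so the list median tilted toward liver in Frozen tissue only. By the rule for a call, the 9 were higher in liver in both preservations. Arc, which acts at stimulated synapses, stood at 6.39 and 7.05 in brain and 4.47 and 4.44 in liver, and the neuronal factor genes Egr3 and Npas4 differed by 1.99 ± 0.44 and 1.24 ± 0.29. Zfp36, which destabilises cytokine messages, stood at 4.84 and 5.10 in brain and 8.71 and 7.69 in liver. Atf3 differed by -2.15 ± 0.32, Ier2 by -1.81 ± 0.30 and Socs3 by -1.69 ± 0.26, and Fos was not called, at -0.33. Of 19 clock genes 3 were called higher in liver and 1 in brain, near or below the 14.9% and 11.3% of all genes. Higher in liver were 2 without brain Frozen, 1 without liver Frozen and 6 without liver FFPE, and higher in brain 2 without brain Frozen and none without brain FFPE or liver Frozen. Per2 stood at 5.87 and 5.97 in brain against 7.99 and 7.61 in liver. The hour of tissue collection is not stated in the labels.

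The counts that follow stand against 14.9% of all genes called higher in liver. Heat shock genes were called higher in liver for 7 of 12 members, with Hspa5, a chaperone of the endoplasmic reticulum, at -1.47 ± 0.27. That count was 1 without brain Frozen, 1 without liver Frozen and 11 without brain FFPE. Cytosolic ribosomal protein genes were called higher in liver for 53 of 86 members. Their median was -1.17 in Frozen and -0.48 in FFPE, and the count was 18 without brain Frozen, 14 without liver Frozen and 26 with library totals that leave out mitochondrial genes. Rps16 stood at 4.27 and 3.70 in brain against 5.96 and 5.19 in liver. Many of these genes have near-identical processed copies, so the values of single members are uncertain. Of 16 housekeeping genes 5 were called higher in liver, or 3 without either Frozen library. B2m, the light chain of the class I molecules that present antigen, stood at 3.37 and 3.11 against 6.16 and 5.27. Gapdh was not called, at -0.54 ± 0.26.

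The 15 largest differences toward brain were taken from called genes with at least 40 counts over the pair in each preservation. Mt3, a metallothionein of neurons, stood at 4.88 and 5.32 in brain and 1.54 and 1.56 in liver. Kcnj11, the pore of the ATP-sensitive potassium channel, stood at 6.40 and 7.29 against 3.07 and 3.65, but heart Frozen was above brain at 8.11. Rab33a, a GTPase of growing axons, had 57 and 64 counts in brain and 6 and 4 in liver. Zic5 stood at 5.87 and 7.11 against 3.51 and 2.78. The others are Sncb, Ly6g6d, Olfr1324, H2bu2, Mir124a-3, the host genes Mir124a-1hg and Mir124-2hg, and the uncharacterised transcripts A330070K13Rik, Ppp2r2cos, Gm17750 and 4930471C04Rik. The call of Olfr1324, which had 2 and 9 counts in liver, was lost without brain Frozen, as was that of Mir124a-3.

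The 15 largest toward liver were mostly secreted proteins and enzymes. Rdh7, a retinol and steroid dehydrogenase, had 54 and 24 counts in brain and 1750 and 734 in liver, a difference of -5.01 ± 0.31. Crp, an acute phase protein, stood at 2.85 and 3.30 in brain and 7.77 and 6.57 in liver, and Mbl1, a lectin that activates complement, at 2.30 and 1.86 against 6.77 and 5.95. Mup3, a pheromone carrier in urine, stood at 2.25 and 2.76 against 7.32 and 6.48, but Mup genes are near copies of each other and their reads may be shared. 1700061E17Rik had 0 and 6 counts in brain and 124 and 90 in liver, a ratio of 36.9 (95% interval 16.7 to 102, counting error only). The others are Cyp8b1, Pck1, Apoa2, Hp, Orm1, Apon, Apoc4, Wfdc21, Gm11789 and Mir339.

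MicroRNA loci were short and thinly counted, but several differed in both preservations. Of 562 precursor genes, 27 (4.80%) were called higher in brain and 33 (5.87%) in liver, below the 11.3% and 14.9% of all genes. Only 34 of the 562 had at least 40 counts over the pair in each preservation. The precursor counts changed with the scaling, to 14 and 47 with quantile normalization and to 39 and 23 with library totals that leave out mitochondrial genes. The miR-9 loci, which act in neural progenitors, had the same pattern at 3 places in the genome. Mir9-1 had 33 and 53 counts in brain and 8 and 7 in liver, Mir9-2 had 33 and 47 against 3 and 2, and Mir9-3 had 29 and 39 against 1 and 3. All 3 give the mature sequence whose seed is CUUUGGU. Mir124a-3, a locus of a microRNA abundant in neurons, had 42 and 40 counts in brain and 2 and 2 in liver, and Mir124a-1hg, the host gene of another miR-124 locus, stood at 7.22 and 8.40 against 3.93 and 4.74.

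On the liver side, Mir122, the locus of the dominant hepatocyte microRNA, had 0 and 1 counts in brain and 38 and 40 in liver, a ratio of 80.6 with a wide 95% interval of 14.1 to 3226. Mir148a had 5 and 4 counts in brain and 89 and 58 in liver, a ratio of 16.9 (8.66 to 37.7). Mir339 had 9 and 2 against 138 and 58, Mir203 had 7 and 2 against 60 and 38, and Mir192 had 10 and 14 against 61 and 35. None of the seeds printed for them is that of miR-9. Reads over a precursor may come from the gene that holds or borders it.

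Heart and kidney place the called genes among 4 organs. Of the 3052 genes higher in brain, brain was the highest of the 4 organs in both preservations for 2061 (67.5%), and liver was the lowest for 1603 (52.5%). Both held for 835, as for Grin1, Stmn2, Zic1 and Mbp, and neither for 223. Of the 4020 genes higher in liver, liver was the highest for 2610 (64.9%) and brain the lowest for 2336 (58.1%), with both for 1163 and neither for 237. Lyve1, Per2 and Apoa2 were highest in liver and lowest in brain. Alb, Cyp8b1 and Tat were highest in liver, and brain was not the lowest in both preservations. Eng, Kdr, Zfp36 and B2m were lowest in brain without being highest in liver, since heart was above liver in 1 or both preservations.

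Called genes lay next to each other along the chromosomes in places. Runs of at least 4 neighbouring genes called in the same direction numbered 48 for brain, with 211 genes, and 119 for liver, with 593. With quantile normalization there were 76 runs for brain. With only the 4 brain and liver libraries in the fit there were 31 for brain and 73 for liver. The longest was the Mup cluster on chr4:60066469-61782355, 17 genes, followed by 10 serpin genes from Serpina1b to Serpina5 on chr12:103728156-104106138. A run of 7 on chr9:46012820-46298783 holds the apolipoprotein genes Apoa1, Apoc3, Apoa4 and Apoa5. For brain 2 runs had 7 genes, 1 from Cdhr2 to Hk3 with Gprin1 and Sncb on chr13:54701463-55021475, and 1 from Kcnj11 to Sergef on chr7:46097123-46642896. Coordinates are those of the RefSeq annotation on GRCm38.p6. Tandem copies share sequence, and whether reads between neighbours were shared was not tested. On the X chromosome 11.6% of genes were called higher in brain, near the 11.3% of all genes. Higher in liver were 4.15%, below the 14.9% of all genes.

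Genes higher in brain covered a median of 26994 bases of genome, those higher in liver 14604 and those not called 13400. The promoter table held a sequence for 80.1% of the 3488 protein-coding genes higher in liver. Of those promoters 61.9% had a CpG ratio, observed over expected, of at least 0.6, against 49.8% of the promoters of all tested protein-coding genes. The HNF4A core was in 4.83% of them and 4.12% of all. The same check is void for genes higher in brain, since the table held a promoter for 76.7% of the 2496 protein-coding ones, under the 80% needed.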

How the data were processed

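Chromatin was immunoprecipitated with an antibody against H3K27Ac and sequenced. The submitters' processing notes name the aligner Bowtie2, the counter featureCounts, limma and mm10, with no versions. The part of a gene that was counted is not stated in the labels. The authors deposited log2 values for 27179 genes in 8 columns, 1 for each organ and preservation. Undoing a prior count of 0.5 and an effective library size gave whole numbers for every value to within 0.001, so the deposited log2 values are log2 CPM. The columns carry no replicate number, and whether a column is 1 of the 2 samples of its group or their merged reads is not given, so each column was taken as 1 library. No input was used here, and background reads are part of every value. Library kit and ChIP run cannot be matched to the columns.

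Genes at 0 counts in all libraries (235) were removed. The deposited log2 values of all 8 libraries were fitted in limma 3.58.1 (R 4.3.3; lmFit and eBayes with a variance trend) with organ and preservation as terms, which leaves 3 residual degrees of freedom, and brain minus liver was tested with 2-sided p-values and Benjamini-Hochberg adjustment. The fit was tested on simulated data. Promoter features were used for sets with at least 80% of members in the table. In the main fit heart and kidney enter the estimate of spread only. In fits without a brain or liver library they also enter the preservation effect, and through it the difference. Intervals of count ratios are exact Clopper-Pearson at 95% and cover counting error only.

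The members and the 34 gene lists were chosen with earlier results of these data known. Named genes are the 15 largest per direction among called genes with 40 counts over each pair, up to 4 called members per list with the largest smaller-of-both difference, members called against their list, defining members that did not pass, the 5 strongest opposite genes, isoform pairs and the longest runs. Some genes of the lists are not reported here by name. MicroRNA genes and further members named beside them were chosen after their values were seen. Of the identifiers, 25275 matched the RefSeq gene table of GRCm38.p6. Alternatives were other scalings, filters, pseudocounts, weights and sample sets, and leaving out each library.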

Additional observations from a re-analysis of the deposited data

Results flagged for a closer look

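In 5 genes brain and liver differed in opposite directions in the 2 preservations, with the only Frozen pair of libraries on one side of 0 and the only FFPE pair on the other. They are the 5 with the largest opposite differences among genes with at least 40 counts in each pair, and the difference between preservations was not tested, since each rests on 1 library a side. Nps, which encodes neuropeptide S, differed by 1.95 (log2, brain minus liver) in Frozen and by -1.80 in FFPE, on 33 and 8 counts in Frozen and 12 and 41 in FFPE. The uncharacterised transcript 1700022A22Rik differed by 2.17 and -1.93, on 34 and 7 counts, then 9 and 34. The olfactory receptor gene Olfr1417 differed by 1.73 and -1.96, and Olfr730 by 3.08 and -1.54, the latter on 47 and 5 counts, then 12 and 34. Gm15122 went the other way, with -1.72 in Frozen and 1.51 in FFPE. Gm15122 had 39 and 127 counts in Frozen and 67 and 22 in FFPE. None of the 5 was called.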

How the results depend on the processing

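The counts of called genes stayed within 1.5 times of the 3052 and 4020 reported under every alternative other than 3. Without a variance trend they were 1759 higher in brain and 2080 higher in liver. Leaving out 1 library in turn gave 1604 to 3175 genes higher in brain and 1993 to 4210 higher in liver, lowest without a Frozen library. Thresholds of 1.5-fold and 4-fold in both preservations gave 3190 and 176 genes for brain, and 3417 and 445 for liver. Runs for brain numbered 76 with quantile normalization and 31 with the 4 libraries alone, and runs for liver 73 with the 4 alone; these fits, and those without heart or kidney, were chosen after seeing the data. In the 100 bases before the start, 51.6% of tested protein-coding genes had the CpG ratio and 1.31% the HNF4A core, and 1.65% of those higher in liver had that core. Of the 176 named genes 158 were called, no called difference changed sign under any alternative run, and 213 calls were lost over all of them, the most without a variance trend (35) and without liver Frozen (33). No paired analysis was possible because the columns carry no replicate number; brain and liver were matched by preservation alone, and without that term the counts were 2084 and 2870. Counts limit microRNA loci and other genes with under 10 counts in a library.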

Other observations

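Several gene families, of which the lists held single members such as Zic1, Syt1 and B2m and some cytochrome P450 genes, were read from their symbols after the values had been seen, and their counts are descriptions. Genes of voltage-gated calcium channels were called higher in brain for 18 of 26 members, synaptotagmins, the calcium sensors of vesicle release, for 13 of 17, and voltage-gated sodium channels for 9 of 14, with none higher in liver in any of the 3 families. Of all genes, 11.3% were called higher in brain and 14.9% higher in liver. Scn2a stood at 6.72 and 7.19 (log2 CPM, Frozen then FFPE) in brain and 4.70 and 5.09 in liver. Syt4 stood at 6.03 and 6.54 against 3.49 and 4.53. All 5 Zic genes were higher in brain, and each was higher in brain FFPE than in brain Frozen, as for Zic4 at 6.36 and 7.45 against 3.79 and 3.80 in liver. Of 100 cytochrome P450 genes 53 were called higher in liver and 1 higher in brain. That 1 is Cyp46a1, which hydroxylates cholesterol in neurons.

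2 families of immune genes had most members called higher in liver. Of 9 interferon regulatory factor genes 8 were called, with Irf1 at 4.80 and 5.07 in brain and 8.04 and 6.83 in liver and Irf5 at 4.72 and 4.61 against 7.26 and 6.29. Of 10 antigen presentation genes 8 were called, among them H2-K1 at 4.06 and 4.64 against 6.64 and 6.43 and Tap1 at 4.92 and 5.02 against 7.01 and 6.22. H2-D1 differed far more in Frozen, at 5.20 against 7.80, than in FFPE, at 4.94 against 5.91. The lymphocyte and Kupffer cell lists had 1 of 10 and 2 of 14 members called higher in liver, against 14.9% of all genes. The part of these cell types in those values was not tested.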
